A study of Mus musculus with 2 samples.

Results

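The Gata family comprises 6 genes, Gata1 to Gata6, and was examined here for the histone mark H3K27me3 in mouse chondrocytes. A gene counted as marked when its symbol was attached to at least 1 deposited peak, that is, a region enriched in the immunoprecipitated DNA lying over the gene or within 5 kb of it. The family supplied 6 of 21887 protein-coding genes and 22 of the 19359 peaks. Gata2, Gata3, Gata4, Gata5 and Gata6 were marked, and Gata1 was not.

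The cells were wild-type primary chondrocytes released with collagenase from the rib cartilage of newborn CD1 mice and kept overnight in medium with 10% serum. There were 2 libraries from these cells, 1 of DNA immunoprecipitated with an H3K27me3 antibody and 1 of input DNA, and they carried no treatment or mutation. The libraries were told apart by their titles, because the antibody entries of the 2 samples are the reverse of the titles. Whether the cells of several animals were pooled is not given in the sources used here. The peak caller kept 17237574 reads of the immunoprecipitated library and 17004082 of the input. Neither library had a replicate, and the differences below could not be tested against replicate error. Values describe these 2 libraries.

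GATA factors are zinc finger proteins that bind the DNA sequence from which they take their name. Gata1, Gata2 and Gata3 are best known from blood: Gata2 maintains blood stem and progenitor cells, Gata1 drives red cell and megakaryocyte formation, and Gata3 directs T cell development. Gata4, Gata5 and Gata6 act in the heart and in the gut and other organs of endodermal origin. H3K27me3 is placed by Polycomb repressive complex 2, is typically found over developmental regulators that a cell type does not use, and is associated with silent genes. It often covers such genes as broad domains rather than as sharp peaks.

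A peak lay over or near 5 of the 6 genes, where 20.7% of all protein-coding genes had a peak. The 22 peaks covered 137.92 kb in all. Each of the 5 marked genes had 3 or more peaks, which 5.62% of all protein-coding genes had. Among the marked protein-coding genes alone, 72.9% had fewer than 3 peaks. A peak of 10 kb or more was found at Gata3 and Gata4, and at 2.63% of protein-coding genes. Both also had the start of the deposited gene record under a peak, as did 4.45% of protein-coding genes. The median marked protein-coding gene had 2 peaks with a summed length of 3.75 kb, and every marked Gata gene exceeded this length. The family's peaks ranged from 483 bp to 50.7 kb in width, against a median of 1.27 kb over all peaks.

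**Figure D1:**
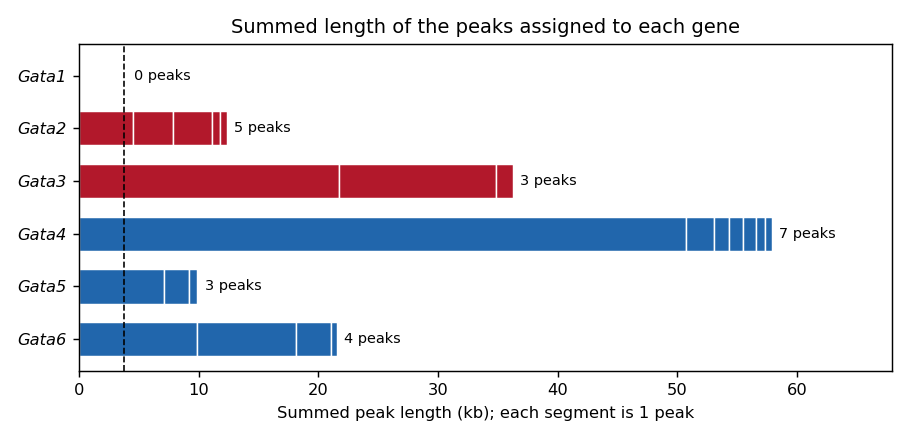
Summed length in kb of the peaks assigned to each Gata gene, with 1 segment per peak, blood members in red and heart and gut members in blue. The dashed line is the median of all marked protein-coding genes (3.75 kb). Gata4 has the longest bar (57.9 kb), almost all of it a 50.7 kb peak, Gata3 follows with 36.2 kb, and Gata1 has no peak.

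Gata1 had no peak within 5 kb of its 17.4 kb gene on the minus strand of the X chromosome (GRCm38, chrX:7959260-7976663). The closest peak lay 34.6 kb beyond its 3′ end, and on the other side the closest was 231 kb away. That closest peak was 1.28 kb wide and had a pileup of 11.06, the pileup being the depth of stacked DNA fragments as the peak caller gives it, averaged over the region. Its neighbours Hdac6, a histone deacetylase gene 11.2 kb downstream, and Glod5, 27.5 kb upstream, were also without a peak. Of 966 protein-coding genes on the X chromosome 5.90% were marked, against 21.7% on the autosomes. The sex of the mice is not given in the sources used here, and the part of the chromosome in the absence of a peak at Gata1 was not tested.

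Gata2, the stem and progenitor cell regulator (ENSMUSG00000015053, plus strand, chr6:88193891-88207032), carried 5 peaks of moderate width with a summed length of 12.3 kb. The widest, 4.49 kb, ended 999 bp before the start of the gene and had a pileup of 12.49. There were 3 peaks inside the gene, of 3.22 kb, 3.38 kb and 588 bp, with pileups of 12.41, 12.81 and 11.05. The last, 661 bp wide with a pileup of 12.15, lay past the 3′ end. Peaks thus framed Gata2 on both sides and together covered 54.7% of the gene. All 5 had a mean q-value of 0.05 or less, the q-value being the caller's false discovery rate, which it averages over the region. The fold enrichment over the local input estimate was between 3.22 and 3.58, against a median of 3.16 over all peaks.

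Gata3, which also acts in kidney, inner ear, skin and mammary gland (ENSMUSG00000015619, minus strand, chr2:9857078-9887953), had 3 peaks with a summed length of 36.2 kb. Of the marked protein-coding genes, 97.2% had less peak length. A 21.7 kb peak covered the start of the gene record and much of the region upstream, from -14553 to 7184 bp relative to that start. Its pileup of 13.52 and fold enrichment of 3.74 were the highest of the blood members, and its mean q-value was 0.00285. A fold enrichment of 3.5 or more was found at 5.35% of protein-coding genes, and in the family at Gata2, Gata3, Gata4 and Gata6. A peak of 1396 bp (pileup 11.27) and one of 13.1 kb (pileup 11.79) lay farther inside. The intervals of 1470 and 1613 bp between them were the only breaks in a marked stretch that reached from inside the gene to far upstream of it, and 65.8% of the gene record lay under a peak.

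Gata4, a regulator of heart muscle formation (ENSMUSG00000021944, minus strand, chr14:63198914-63271712), had the most peaks and the longest marked stretch. A 50.7 kb peak (chr14:63227131-63277878) began 6166 bp upstream of the gene and ran across its start and most of its body. It was the 14th widest of all 19359 peaks and held 87.7% of the peak length at Gata4. Its pileup was 14.03, with a 95% exact Poisson interval of 13.5 to 14.6, and its fold enrichment was 3.72. Such intervals were computed from the fragment number that pileup and width imply, about 2422 here, and they cover counting error only.

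The other 6 peaks at Gata4 lay toward its 3′ end and were 552 bp to 2.32 kb wide. Of these, 3 had a mean q-value above 0.05, as did 39.2% of all peaks. The weakest, 772 bp wide, had a pileup of 9.86, which is the lowest of any peak in the data, and a mean q-value of 0.0988. A 1.25 kb peak with a high pileup of 13.40 had the lowest fold enrichment of the family, 2.87. The input estimate, computed back from pileup and fold enrichment with 1 added to both terms of the ratio, was 4.01 there against 2.67 to 3.14 under the other 21 family peaks. The 3′-most peak also reached within 5 kb of Neil2, a DNA repair gene 4.76 kb away, and was assigned to both genes. Together the 7 peaks covered 70.2% of the Gata4 record.

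Gata5, which acts in heart and endoderm (ENSMUSG00000015627, minus strand, chr2:180325088-180335503), had the least peak length of the marked members, 9.88 kb in 3 peaks. Its widest peak, 7.08 kb with a pileup of 11.51, ended 467 bp before the start of the gene record. The 2 peaks inside the gene were 2.07 kb and 736 bp wide, with pileups of 11.42 and 9.99, and covered little of it: 29.3% of the record lay under a peak. The mean q-values were 0.0237 to 0.0876 and none reached 0.01, which a peak at 5.90% of protein-coding genes did. Its length-weighted mean pileup was 11.38, and 49.4% of the marked protein-coding genes had a lower one. The 3 peaks also lay within 5 kb of Gata5os, a noncoding gene on the opposite strand, and ChIP reads do not tell the strands apart.

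Gata6, a regulator of endoderm and heart (ENSMUSG00000005836, plus strand of chromosome 18, 33.1 kb record), had 4 peaks with a summed length of 21.6 kb. A peak of 8.32 kb lay just upstream, ending 331 bp before the start of the gene, with a pileup of 12.51 and the highest fold enrichment at this gene, 3.63. The widest, 9.84 kb with a pileup of 12.79, began 925 bp inside. Farther inside lay a 483 bp peak with a mean q-value of 0.0571 and a 2.92 kb peak with a pileup of 11.06. Together the peaks covered 39.98% of the record. Gata6os, on the opposite strand, shared peaks with Gata6.

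**Figure D2:**
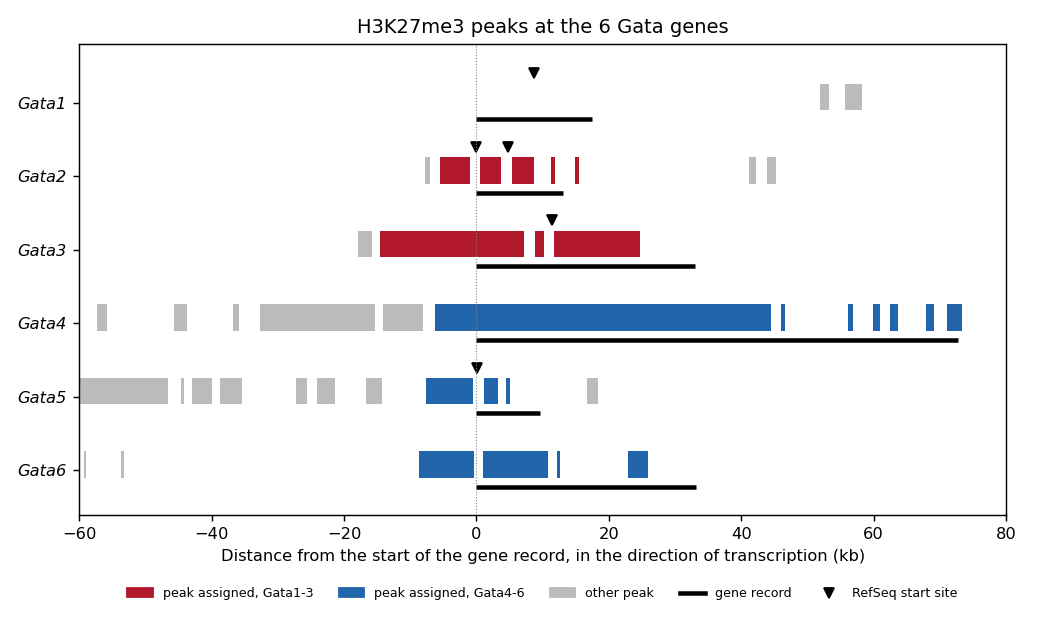
Peaks along each Gata gene against the distance from the start of the gene record in kb, in the direction of transcription, with assigned peaks in red (blood members) or blue (heart and gut members), other peaks in grey, gene records as black lines and RefSeq start sites as triangles. Gata4 is under a continuous 50.7 kb block over its start, Gata2, Gata5 and Gata6 have peaks on both sides of the start, and the only peaks drawn for Gata1 are 2 grey ones beyond its 3′ end.

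The order of peak length was Gata4, Gata3, Gata6, Gata2 and Gata5, and that of the length-weighted mean pileup was Gata4, Gata3, Gata2, Gata6 and Gata5. Gata4 had a mean pileup of 13.7 (interval 13.2 to 14.2), higher than at 97.3% of the marked protein-coding genes. Gata3 followed with 12.8 (12.2 to 13.5), Gata2 with 12.5 (11.4 to 13.6) and Gata6 with 12.4 (11.6 to 13.2). Gata5 had 11.4 (10.3 to 12.6). Of the 10 pairs of marked members, only Gata4 and Gata5 had intervals that did not overlap. Overlap of 2 such intervals is no test of their difference, and none was made. The peaks had been selected for high signal, which the intervals do not allow for.

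**Figure D3:**
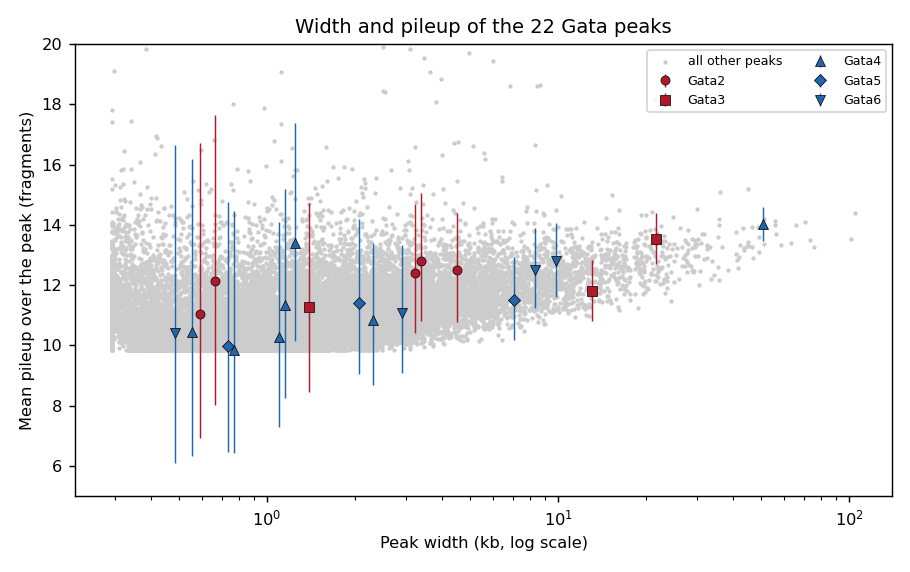
Pileup (fragment depth) against peak width (kb, log axis) for the 22 Gata peaks, with a symbol for each gene, blood members in red and heart and gut members in blue, all other peaks in grey, and 95% exact Poisson intervals as bars. The 50.7 kb peak at Gata4 is the widest and has the highest pileup of the family (14.03), the narrow peaks have wide intervals, and 39 peaks of the whole table with a pileup over 20 are beyond the axis.

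Blood members and heart and gut members were compared by their peaks, summed length, pileup and position. Of the blood members 2 of 3 were marked, with 8 peaks and 48.6 kb, and of the heart and gut members 3 of 3, with 14 peaks and 89.3 kb. The summed length was 1.84 times greater for the heart and gut members. This rested on Gata4: without it, Gata5 and Gata6 had 31.4 kb, less than the blood members. Without Gata3, the blood length was Gata2's 12.3 kb. The genes themselves also differed in length. Gata4, Gata5 and Gata6 spanned 72.8, 10.4 and 33.1 kb, and Gata1, Gata2 and Gata3 spanned 17.4, 13.1 and 30.9 kb. Longer genes offer more room for assigned peaks. The part of gene length in the difference was not tested.

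The peaks of the blood members were wider at the median, 3.30 kb against 1.66 kb, and their pileups lay closer together. The size and order of the median widths moved with single genes and with weak peaks. The heart and gut median was 2.92 kb without Gata4, 1.25 kb without Gata5 and 1.20 kb without Gata6, and the blood median was 13.1 kb without Gata2 and 3.22 kb without Gata3. Over the 9 heart and gut peaks with a mean q-value of 0.05 or less it was 2.92 kb, and over the 5 of these that remain without Gata4 it was 7.08 kb, above the blood median. The pileups ranged from 11.05 to 13.52 at the blood members, and all 8 lay above the median of all peaks, 11.04. The heart and gut members ranged from 9.86 to 14.03, and 8 of their 14 peaks lay above that median. The 2 ranges overlapped. Weighted by length, the mean pileup was 12.7 (12.2 to 13.3) at the blood members and 13.1 (12.7 to 13.5) at the heart and gut members, and these intervals overlapped as well. Without Gata4 the heart and gut mean was 12.1, below that of the blood members. Counting each peak equally, the order turned, with 12.2 at the blood members and 11.4 at the heart and gut members. All 5 family peaks with a mean q-value above 0.05 were at heart and gut members. They were 5 of the 14 peaks there, beside 39.2% of all peaks.

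Most peaks of both groups lay inside genes, 5 of 8 at the blood members and 10 of 14 at the heart and gut members. Each group had 1 peak over the start of a gene record. Upstream peaks numbered 1 at the blood members and 2 at the heart and gut members. The only peak wholly past a 3′ end was at Gata2, and the only peak over a 3′ end was at Gata4. The shares of these positions over all peaks are not given here. The counts therefore do not tell whether the family differs from other marked genes in position.

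The start sites of Gata2, Gata3 and Gata5 in the RefSeq promoter table lay in short breaks between peaks, whereas by the ends of the RefSeq gene table the starts of Gata3, Gata4 and Gata5 lay under a peak. The RefSeq promoter table for GRCm38 held 5 start sites for 4 members, 1 each for Gata1, Gata3 and Gata5 and 2 for Gata2. The 250 bases before each are printed 5′ to 3′ on the gene's strand, because the breaks can be set beside the dinucleotide CG, shown in capitals. Runs of such dinucleotides, known as CpG islands, are a common feature of the genes that Polycomb complexes bind. The positions are chrX:7967911-7968160 for Gata1, chr6:88193641-88193890 and chr6:88198414-88198663 for Gata2, chr2:9878601-9878850 for Gata3 and chr2:180334680-180334929 for Gata5.
Gata1: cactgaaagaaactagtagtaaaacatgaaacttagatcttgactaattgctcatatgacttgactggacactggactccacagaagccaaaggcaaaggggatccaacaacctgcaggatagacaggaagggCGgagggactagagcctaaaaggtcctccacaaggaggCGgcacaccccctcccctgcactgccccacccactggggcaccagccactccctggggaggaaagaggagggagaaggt
Gata2, first start site: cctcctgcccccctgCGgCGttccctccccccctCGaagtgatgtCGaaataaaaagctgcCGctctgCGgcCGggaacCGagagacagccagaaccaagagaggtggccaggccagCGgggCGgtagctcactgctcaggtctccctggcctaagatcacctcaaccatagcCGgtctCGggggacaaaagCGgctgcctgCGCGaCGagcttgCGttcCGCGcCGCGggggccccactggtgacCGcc
Gata2, second start site: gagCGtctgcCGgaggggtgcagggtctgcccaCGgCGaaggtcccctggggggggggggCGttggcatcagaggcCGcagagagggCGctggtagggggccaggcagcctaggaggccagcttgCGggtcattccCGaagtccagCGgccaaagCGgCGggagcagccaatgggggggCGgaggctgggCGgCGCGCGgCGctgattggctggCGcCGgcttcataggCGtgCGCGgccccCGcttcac
Gata3: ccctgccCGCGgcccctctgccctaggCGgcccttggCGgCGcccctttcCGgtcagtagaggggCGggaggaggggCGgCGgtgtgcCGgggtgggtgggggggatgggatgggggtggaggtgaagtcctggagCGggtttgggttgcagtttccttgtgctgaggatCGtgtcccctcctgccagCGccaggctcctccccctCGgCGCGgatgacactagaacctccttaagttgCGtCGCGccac
Gata5: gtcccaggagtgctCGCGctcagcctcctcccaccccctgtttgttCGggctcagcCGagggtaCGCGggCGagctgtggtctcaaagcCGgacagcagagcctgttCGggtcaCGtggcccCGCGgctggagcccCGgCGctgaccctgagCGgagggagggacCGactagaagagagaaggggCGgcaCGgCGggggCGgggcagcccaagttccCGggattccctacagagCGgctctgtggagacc

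None of these 5 sites was under a peak. Over the table, 4.58% of 32851 start sites were under a peak, and 20.1% of those of marked genes. The 4 sites of Gata2, Gata3 and Gata5 all lay in an interval of at most 2 kb between neighbouring peaks, a limit that was set after the values were seen. Such intervals held 1.33% of all start sites and 6.87% of those of marked genes. At Gata2 the intervals were 1509 and 1634 bp wide, with the nearest peak base 512 and 591 bp downstream of the start. At Gata3 the interval was 1470 bp and the upstream peak ended 1241 bp away, the downstream one beginning after 230 bp. At Gata5 it was 1591 bp, with peaks 487 bp upstream and 1105 bp downstream. The annotated 5′ end of Gata6 fell in a 1255 bp interval in the same way, whereas that of Gata4 lay under its 50.7 kb peak. By the same gene table, the 5′ ends of Gata3 and Gata5 lay under a peak, so their position in a break holds for the start sites of the promoter table and not for the annotated gene ends. The Gata3 site lies inside the gene record, so that the record's start and this start site gave different answers. The smallest interval between any 2 peaks in the data was 1177 bp, so a narrower loss of signal could not appear as a break.

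**Figure D4:**
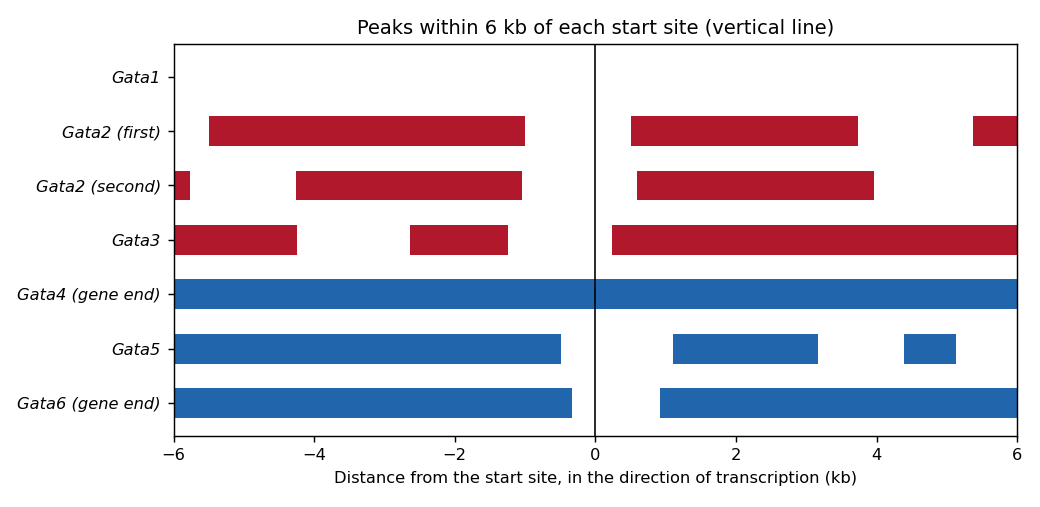
Peaks within 6 kb of each start site (vertical line), with distance in kb along the direction of transcription, blood members in red and heart and gut members in blue. The start sites of Gata2, Gata3 and Gata5 and the 5′ end of Gata6 fall in white breaks of 1255 to 1634 bp between peaks, that of Gata4 is covered, and Gata1 has no peak.

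The 4 sites in breaks were rich in CG. There were 22 and 24 such dinucleotides before the 2 starts of Gata2, 19 before that of Gata3 and 22 before that of Gata5, and 2 before that of Gata1. The median was 6 over all start sites and 10 over those of marked genes. It was 8 over the 1503 sites under a peak and 14 over the 437 sites in breaks of at most 2 kb. The share of G and C was 67.2% and 74.0% for Gata2, 70.0% for Gata3 and for Gata5 and 54.0% for Gata1. Its median was 52.4% over all sites, 57.2% over those of marked genes and 62.4% over those in such breaks. Base composition affects how well DNA is amplified and sequenced, and its part in the breaks was not tested. The GATA binding motif was searched on both strands as AGATAA or AGATAG and as TGATAA or TGATAG. It had no match in the 5 sequences, and 26.5% of all promoter sequences of this length held one. The share was 21.8% for the sites of marked genes and 14.4% for the sites in breaks of at most 2 kb.

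**Figure D5:**
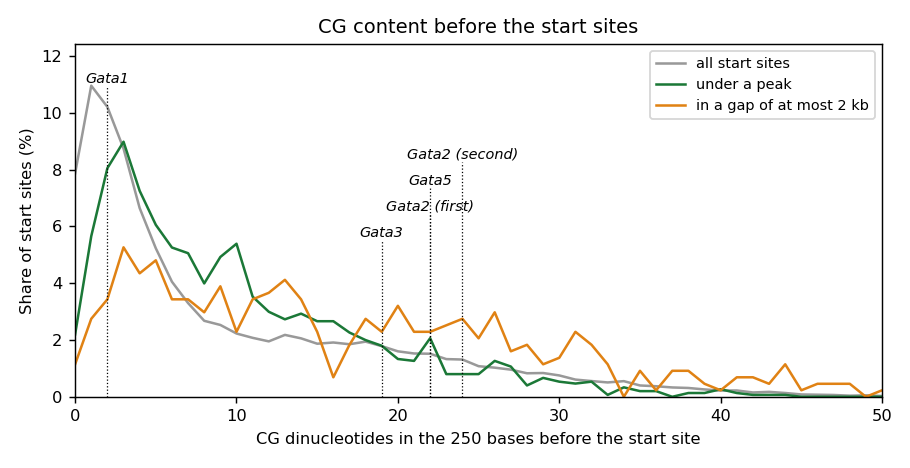
Share of start sites (%) by the number of CG dinucleotides in the 250 bases before the site, for all sites, those under a peak and those in a break of at most 2 kb, with dotted lines at the Gata start sites. Gata1 (2) lies near the low maximum of the curve for all sites, and Gata3 (19), Gata5 (22) and the 2 sites of Gata2 (22 and 24) lie far to its right.

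Genes that work with GATA factors were marked in part. Of 10 cofactor genes 3 had a peak, beside 20.7% of all protein-coding genes: Tal1 (21.9 kb of peak length) and Lmo2 (18.9 kb), members of the blood complex that binds DNA with GATA factors, and Med1, a Mediator subunit, whose single peak of 0.529 kb had a mean q-value of 0.0988. Zfpm1 and Zfpm2, which encode the Friend of GATA proteins, had none. None of 9 other genes with a GATA-type zinc finger (Gatad1, Gatad2a, Gatad2b, Trps1, Rere, Mta1, Mta2, Mta3 and Zglp1) had a peak within 5 kb, and with lists this short neither count was set apart from that share. Several of these encode broadly used chromatin proteins, and Trps1 acts in cartilage and bone.

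Other genes of the blood, heart and gut programmes are given beside the 20.7% of protein-coding genes that were marked. The lists were chosen with earlier results of these data known and the difference from that share was not tested. Of 22 blood genes 13 were marked, led by Pax5, a B cell factor with 67.5 kb in 16 peaks, and Gfi1, a repressor in blood progenitors with 28.0 kb. Of 18 heart genes 10 were marked, led by Tbx5 with 83.4 kb in 7 peaks and Hand2 with 51.2 kb in 1 peak, both factors of heart and limb development. Of 18 gut and endoderm genes 13 were marked, led by Sox2 and Prox1, each with 37.6 kb. Of 10 partners of Gata2 and Gata3 in pituitary, ear, kidney and skin 5 were marked, led by Pax2 with 94.1 kb and Tfap2a with 46.3 kb. Pou1f1, Eya1, Trp63, Foxi1 and Ret had no peak.

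The median summed length of the marked genes was 15.5 kb for the blood list, 21.8 kb for the heart list and 21.98 kb for the gut list, against 3.75 kb over all marked protein-coding genes. Gata2 and Gata5 lay below the medians of these 3 lists, and Gata3 and Gata4 lay above them. Gata6, with 21.6 kb, lay above the blood median and just below those of the heart and gut lists. By peak number, peak length and pileup together, the gene most like Gata3 was Pax1, a skeletal patterning factor with 3 peaks, 33.8 kb and a mean pileup of 12.5, and the gene most like Gata4 was Tbx5, with a mean pileup of 13.03. Each was picked from 974 genes whose record start lay under a peak.

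Of the 12 nearest protein-coding neighbours of the Gata genes, 6 were marked, beside 20.7% of all protein-coding genes, and of these only Neil2 lay within 5 kb of a Gata gene. Dnajb8, 15.2 kb downstream of Gata2, Taf3, 26.6 kb upstream of Gata3, and Rbbp8nl, 35.2 kb downstream of Gata5, had no peak. Rpn1, 88.6 kb upstream of Gata2, had 1 peak of 2.71 kb. Upstream of Gata4 the next gene was Blk, a B cell kinase gene 101 kb away with 7 peaks and 13.9 kb. Slco4a1, 121 kb upstream of Gata5, had 4 peaks and 9.97 kb. Celf2, 2461 kb downstream of Gata3, had 3 peaks and 8.32 kb. Mib1, 234 kb upstream of Gata6, had 1 peak of 1.12 kb, and Rbbp8, 548 kb downstream, had none. The peaks at Gata3 were shared with 9230102O04Rik, a noncoding gene.

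The labelled cell type was set beside marker genes of chondrocytes and of other cells that rib cartilage preparations could hold. The counts stand beside the 20.7% of all protein-coding genes that were marked, and no difference from that share was tested. None of 15 chondrocyte genes, among them Col2a1, Acan and Sox9, had a peak. Of 7 blood cell markers 5 were marked, led by Cd3e (14.5 kb) and Hba-a1 (11.5 kb), while Csf1r and Hbb-bt were not. Hba-a1 has a near-identical copy and its reads may be split. Of 5 muscle markers 3 were marked, led by Pax7 (62.8 kb) and Myod1 (8.57 kb), and Myog and Des were not. Of 5 endothelial markers only Kdr (13.6 kb) was marked, leaving Pecam1, Cdh5, Tek and Tie1. Of 5 fibroblast markers Col1a1 (7.94 kb) and Thy1 (2.76 kb) were marked, and Col1a2, Postn and Dcn were not. A peak does not tell what share of the cells carries the mark, and an absent peak is no measure of expression.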

How the data were processed

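DNA from an H3K27me3 immunoprecipitation and input DNA of wild-type mouse rib chondrocytes was sequenced, 1 library each. Per the submitters' processing notes, CASAVA 1.8.4, Bowtie2, MACS2 and mm10 (GRCm38) were used. The authors called broad peaks with MACS 2.1.0.20140616, immunoprecipitated against input, at a q-value cutoff of 0.05 with a modelled fragment length of 294 bp per the file headers, and they attached genes within 5 kb. The deposited pileup is a signal, the depth of stacked fragments, and deposited fold enrichment is taken as a ratio of pileup to the local input estimate with 1 added to both, as MACS2 computes it; the input estimates given were computed back from it. The deposited significance is the mean −log10 q-value of a region, converted here to q. It exceeded the stated cutoff in 39.2% of regions, and any looser limit for broad regions is not given in the sources used here. Broad calling joins nearby enrichment and sets peak widths.

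The annotated and unannotated tables held the same 19359 peaks. Symbols joined by semicolons were split and matched to the RefSeq gene table, in which 98.8% were found. Peak number, summed length, length-weighted pileup and position were computed in Python 3.11.15 with pandas 2.3.3, numpy 2.4.6 and scipy 1.17.1, and the code was checked on simulated peaks. Fragments were estimated as pileup times width divided by fragment length, for exact Poisson 95% intervals. Blood members were compared with heart and gut members within the same pair of libraries, without tests because neither library had a replicate. The Gata genes and the gene lists were chosen with earlier results of these data known. Named were all members, genes sharing their peaks, nearest neighbours, the most alike gene of each member with a covered start, and of each list the 2 marked genes with most peak length and the unmarked genes where 5 or fewer, besides the Zfpm genes and list examples. The unmarked genes of the gut list are not reported here. Alternatives changed the q-value, fold, width, distance and joining rules, the weighting of pileup and the gene positions.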

Additional observations from a re-analysis of the deposited data

How the results depend on the processing

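Of 68 alternative values for 8 results, 47 stayed close to the reported ones and 21 moved. The number of marked genes (5, or 4 with q-values up to 0.01 or a fold enrichment of at least 3.5) and of covered gene starts (2, or 3 with RefSeq gene positions) stayed within 1.5 times. Keeping q-values up to 0.05 left 9 heart and gut peaks. Keeping those up to 0.01 or a fold of at least 3.5 each left 2 peaks per group, with 22.4 kb and a pileup of 13.5 for the blood members and 59.1 kb and 13.8 for the heart and gut members. Joining peaks less than 5 kb apart gave 2 and 5 peaks. The unweighted pileup was 11.4 for the heart and gut members, which turned their difference from the blood members from 0.39 to -0.77. Leaving out a gene was an alternative chosen after seeing the data. Without Gata3 the blood members had 5 peaks and 12.3 kb. Without Gata4 the others had 7 peaks, 31.4 kb and a pileup of 12.1, which put both length and pileup below those of the blood members. No paired analysis was possible because neither library had a replicate. Counts limit the narrow peaks: the 483 bp peak at Gata6 rests on about 17.1 fragments.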

Other observations

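Peaks assigned to no Gata gene also lay near some members. Within 65 kb upstream of Gata4 there were 5 such peaks with a summed length of 27.8 kb, the nearest 7.98 kb from the gene. Among them were a 6.12 kb peak and a 17.3 kb peak (chr14:63287019-63304349, pileup 11.79). Upstream of Gata5 there were 7 peaks with 30.2 kb, the nearest 13.5 kb away. A 16.8 kb peak among them (chr2:180381268-180398078, pileup 11.87, fold enrichment 3.30) covered Mir1a-1, a microRNA gene of heart and skeletal muscle that lies 53.5 kb from Gata5. Mir133a-2, its partner in the same transcript, lay 301 bp outside this peak. On the other sides of the members that held such peaks within 65 kb, they summed to between 0.607 and 3.91 kb. No such peak lay upstream of Gata1 or downstream of Gata3 and Gata6.

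Start sites in breaks of at most 2 kb were also present among the genes of the programmes. Of 26 start sites of the blood list 3 lay in such breaks, at Bcl11b, Hhex and Ikzf1, and 7 lay under a peak. Of 20 sites of the heart list 1 lay in a break, at Isl1, and 6 lay under a peak. Of 15 sites of the gut list 3 lay in breaks, at Onecut1, Prox1 and Sox2, and 5 lay under a peak. None of the 9 sites of the partner list lay in a break, and 6 lay under a peak. Over all start sites that were either under a peak or in such a break, 22.5% were in the break, and the breaks made up 12.6% of the bases of peaks and breaks together. These genes were named after their values were seen.

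Of the 18 heart genes 8 had no peak. Nppa, Nppb, Myh6, Myh7 and Actc1, which encode natriuretic peptides and contractile proteins, were among them, and so were Mef2c, Srf and Hopx. Tnnt2 and Ryr2, further genes of contraction, had 1 or more peaks. The lowest mean q-value was 0.0673 at Tnnt2 and 0.00688 at Ryr2. These genes too were singled out after their values were seen.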
